A study of Mus musculus with 25 samples.

Results

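A set of 10 genes of periportal hepatocyte metabolism were followed in mouse liver: Sds, Hal, Gls2, Cyp2f2, Hsd17b13, Etnppl, Cps1, Otc, Ass1 and Arg1. They were chosen by name, by matching the gene identifiers of the deposited count table to mouse symbols, and all 10 were found among 56980 genes and passed the filter on low counts in every fit. The libraries were made from poly-A RNA of whole, homogenised liver, so the zones of the liver lobule were not separated, and all mice were male C57BL/6J that were 8 weeks old at the start and 20 weeks old at the end. The 25 libraries fall into 8 groups and 2 batches, which the labels separate by date. In the first batch, each with 3 libraries, were normal chow, the FAT-MASH regimen, and the regimen with 5% or 20% mannose in the drinking water, given over the full 12 weeks (called prevention) or only during the final 6 weeks (called therapy). The FAT-MASH regimen joined chow rich in fat, sucrose and cholesterol with fructose and glucose in the water and a weekly intraperitoneal injection of carbon tetrachloride, a liver toxin. No label gives a vehicle injection for the mice on normal chow, so diet, sugar water and toxin cannot be told apart. The second batch held normal chow without mannose (2 libraries), with 5% mannose (2 libraries) and with 20% mannose (3 libraries) for 12 weeks. It is a separate control set, and in the main fits the groups below were compared within a batch. The effect of 20% mannose was also compared between the diets, which sets a change in the first batch against a change in the second.

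Blood enters the liver lobule at the portal tract and leaves at the central vein, and hepatocytes differ in their enzymes along this path. Periportal hepatocytes break down amino acids, make glucose from their carbon and turn the released ammonia into urea. In the urea cycle, Cps1 joins ammonia and bicarbonate to carbamoyl phosphate, Otc passes it on to citrulline, Ass1 adds aspartate, and Arg1 splits arginine into urea and ornithine. Sds (serine dehydratase), Hal (histidine ammonia-lyase) and Gls2 (liver glutaminase) release ammonia from amino acids upstream of that cycle. Cyp2f2 is a cytochrome P450 used as a periportal marker, Hsd17b13 is a lipid droplet protein, and Etnppl degrades phosphoethanolamine. Which genes stay periportal in a diseased liver was not measured here.

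Promoter sequences are shown for 4 of the genes. With 20% mannose therapy Hal, Cyp2f2 and Otc fell 6.08-, 2.95- and 3.05-fold against FAT-MASH, and Hsd17b13 did not pass the test. Etnppl and Ass1, which fell 3.06- and 1.68-fold, also had a promoter entry, and their sequences are not shown. Each is the 250 bases before the RefSeq transcription start on GRCm38.p6, 5′ to 3′ on the gene's strand, and capitals mark the motif matches named after the sequences. Hal lies on the plus strand (chr10:93488518-93488767), as do Cyp2f2 (chr7:27119705-27119954) and Otc (chrX:10252055-10252304), and Hsd17b13 lies on the minus strand (chr5:103977389-103977638).
Hal: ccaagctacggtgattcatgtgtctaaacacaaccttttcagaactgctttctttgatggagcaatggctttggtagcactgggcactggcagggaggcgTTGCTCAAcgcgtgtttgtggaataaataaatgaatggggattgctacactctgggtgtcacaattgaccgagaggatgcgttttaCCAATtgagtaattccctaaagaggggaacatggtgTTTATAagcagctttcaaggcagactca
Cyp2f2: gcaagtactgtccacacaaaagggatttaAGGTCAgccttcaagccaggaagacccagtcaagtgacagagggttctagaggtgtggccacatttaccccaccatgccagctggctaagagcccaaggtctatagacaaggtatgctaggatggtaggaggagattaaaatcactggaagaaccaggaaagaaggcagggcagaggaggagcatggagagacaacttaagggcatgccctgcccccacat
Otc: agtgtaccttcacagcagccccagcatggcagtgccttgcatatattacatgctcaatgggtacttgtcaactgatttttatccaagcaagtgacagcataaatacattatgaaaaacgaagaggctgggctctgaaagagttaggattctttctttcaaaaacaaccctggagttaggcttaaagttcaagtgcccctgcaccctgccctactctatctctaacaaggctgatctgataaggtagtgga
Hsd17b13: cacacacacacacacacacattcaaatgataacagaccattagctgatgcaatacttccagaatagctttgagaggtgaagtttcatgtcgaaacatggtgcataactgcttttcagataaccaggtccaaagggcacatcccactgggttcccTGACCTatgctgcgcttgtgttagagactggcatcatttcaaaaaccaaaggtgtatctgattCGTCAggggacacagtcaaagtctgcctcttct
Of the 10 genes, 6 had a RefSeq promoter entry; the others, Sds, Gls2, Cps1 and Arg1, are named only. Both strands were searched for 6 motifs, and no match in the windows of these genes overlapped another. The core promoter motif TATAAA was present in 12.4% of 32851 promoter windows of the same length, and CCAAT was present in 33.8%. The glucocorticoid receptor half-site AGAACA was found in 16.1% and the cAMP response element half-site TGACG in 17.8% of them. The nuclear receptor half-site AGGTCA was found in 14.0% and the C/EBP-type motif TTGCNNAA in 9.6%. The Hal window held the C/EBP-type motif from position -150 to -143 before the start, CCAAT from -64 to -60 and TATAAA, on the reverse strand, from -28 to -23. The Cyp2f2 window held AGGTCA from -221 to -216. The Hsd17b13 window held AGGTCA on the reverse strand from -96 to -91 and TGACG on the reverse strand from -33 to -29. None of these letters was found in the windows of Otc, Ass1 or Etnppl. A match describes the letters and not a bound site.

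Level is given as CPM, in which counts are set relative to library size with TMM scaling within a batch, and, to compare genes with each other, as TPM, which also divides by exon length. The adjusted p in this text comes from the quasi-likelihood test of edgeR, adjusted by Benjamini-Hochberg over all genes tested. A gene was called when it was under 0.05, and fold changes are on the log2 scale with their standard error (SE). The first batch had 31298299 to 56010646 counts a library, and the second 35971380 to 49752882. The labels call the libraries of a group biological replicates and say no more about cages or litters, so p-values measure the spread between these libraries. Per length, Arg1 was the highest of the 10 genes on normal chow (1633 ± 36.5 TPM, SD, n = 3). Cyp2f2 (1436 ± 189), Cps1 (1413 ± 62.9) and Ass1 (1405 ± 167) followed and did not differ from each other beyond their SD. A gap separated these from Hsd17b13 (403 ± 32.5), Gls2 (355 ± 18.2), Otc (328 ± 14.2) and Hal (291 ± 22.6). Sds (123 ± 9.79) and Etnppl (65.7 ± 7.54 TPM) were lowest. In 20% therapy the order was Cps1 (876 ± 129), Hsd17b13 (811 ± 201), Arg1 (759 ± 79.4), Ass1 (620 ± 119) and Cyp2f2 (559 ± 224 TPM), and these neighbours overlapped. Hsd17b13 was thus the fifth gene per length on normal chow and the second in 20% therapy, while Hal (45.8 ± 15.3), Sds (26.1 ± 10.9) and Etnppl (14.5 ± 4.66 TPM) remained the lowest 3. TPM lacks the TMM scaling. The log2 ratio of 20% therapy to FAT-MASH was 0.35 to 0.38 higher in TPM than in CPM for the 10 genes, so falls look smaller in TPM. The liver label was checked on 11 genes that all hepatocytes express, such as Alb and Apoa1, whose summed level was 126310 to 141510 CPM on normal chow.

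**Figure D1:**
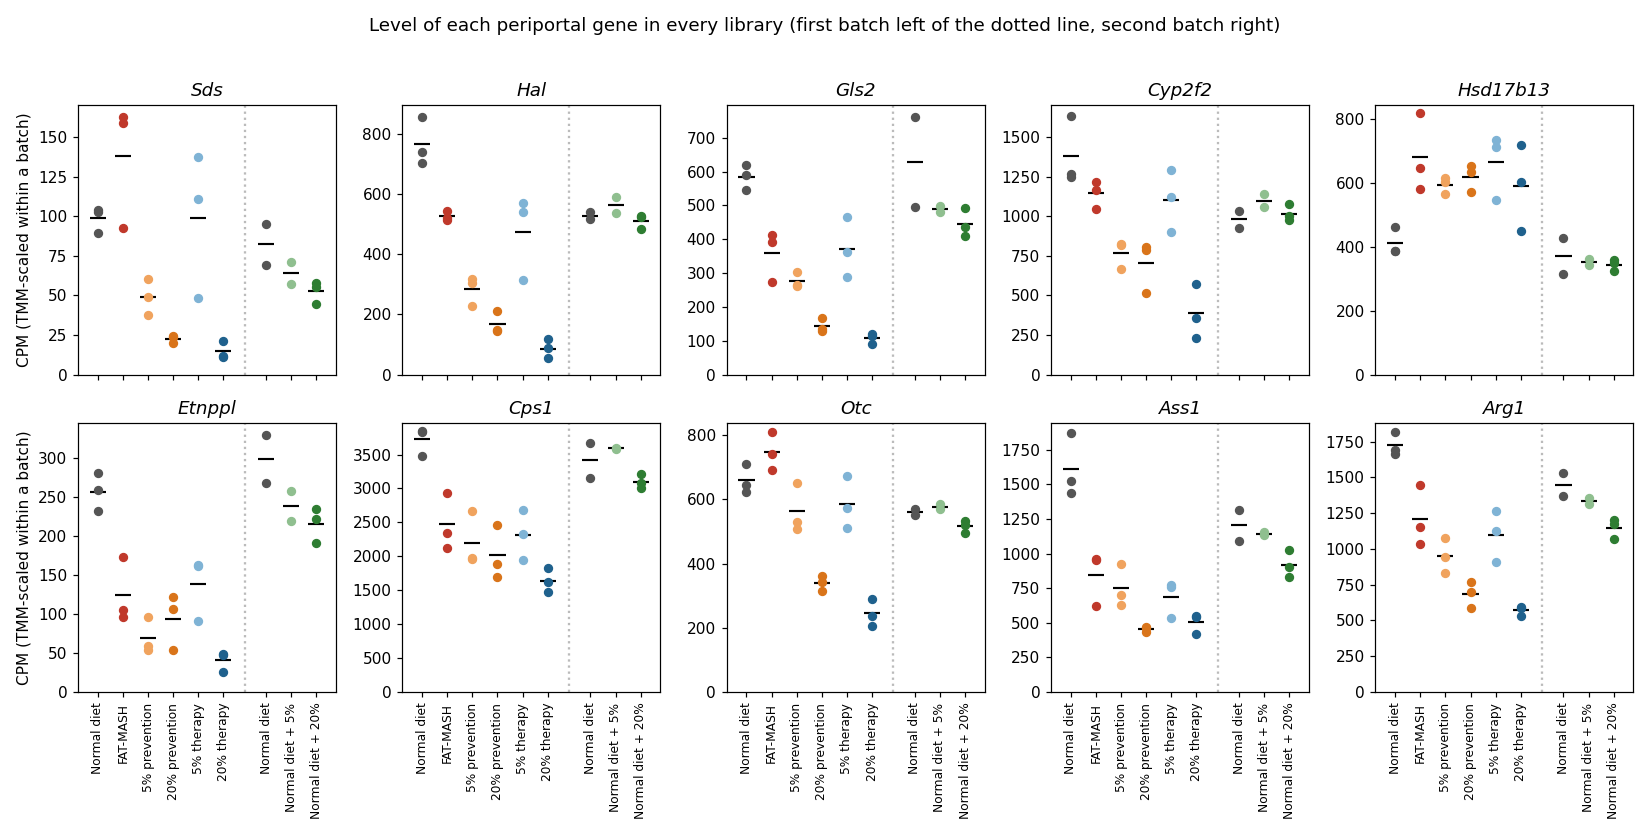
Level of each of the 10 genes in CPM (vertical axes, from 0) in every library, with the group mean as a bar; the dotted line separates the first batch of 18 libraries from the second batch of 7. Sds, Hal, Gls2, Otc, Arg1 and Ass1, the 6 genes called lower in both 20% groups of the regimen, lie below FAT-MASH there without overlap, Hsd17b13 stays above its normal-chow mean in all 5 regimen groups, and on normal chow all libraries with 20% mannose lie below both controls of their batch for 6 genes, none of them called.

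The regimen alone lowered 3 of the 4 urea cycle genes and raised Hsd17b13. Of the 10 genes, 5 were called lower in FAT-MASH than on normal chow, in a comparison where 5.92% of all genes tested were called lower, and 1 was called higher, where 7.81% were. The lower ones were the urea cycle genes Cps1, Ass1 and Arg1, the glutaminase Gls2 and Etnppl, and the higher one was Hsd17b13. The median log2 change of the 10 genes was -0.53, beside 0.03 for all genes tested. The groups did not overlap for 7 genes that were lower (15.1% of all genes) and 1 that was higher (17.7%). Sds, Hal, Cyp2f2 and Otc were not called.

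Ass1, which commits aspartate nitrogen to urea, was at 1521.5, 1437 and 1873 CPM on normal chow and 622, 959 and 956 CPM in FAT-MASH. All FAT-MASH libraries lay below all normal-chow libraries, and the log2 change was -0.93 ± 0.18 (SE; adjusted p = 0.00183). Cps1, the first enzyme of the cycle, was at 3484, 3832 and 3849.8 CPM on normal chow and at 2125, 2346 and 2938 CPM in FAT-MASH (log2 change -0.59 ± 0.16, adjusted p = 0.0191). Arg1 fell from 1663, 1695 and 1819 CPM to 1031, 1156 and 1449 CPM (-0.51 ± 0.14, adjusted p = 0.0211). Neither gene's groups overlapped. Otc, the mitochondrial step between Cps1 and Ass1, went the other way in value without being called, from 624, 644 and 710.3 CPM to 693, 742 and 809 CPM (0.18 ± 0.13, adjusted p = 0.418). Gls2 fell from 591, 544 and 621 CPM to 273, 391 and 412 CPM (-0.71 ± 0.17, adjusted p = 0.00823), and Etnppl from 259, 280.1 and 232 CPM to 173, 105 and 95.7 CPM (-1.04 ± 0.31, adjusted p = 0.031), again without overlap.

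Hsd17b13, the lipid droplet protein, rose from 386, 389 and 464 CPM on normal chow to 819, 582 and 646 CPM in FAT-MASH, with no overlap (log2 change 0.73 ± 0.16, adjusted p = 0.00377). Sds had values of 104, 89.3 and 103 CPM on normal chow and 159, 92.6 and 163 CPM in FAT-MASH, where 1 library lay within the normal range (0.48 ± 0.29, adjusted p = 0.322). Hal was at 705, 740.0 and 857 CPM on normal chow and at 515, 522 and 543 CPM in FAT-MASH, groups that did not overlap, but its change of -0.54 ± 0.23 missed the threshold (adjusted p = 0.14). In a fit of only the groups compared, edgeR called Hal (-0.557, adjusted p = 0.00318). With no filter on low counts it called both Hal and Sds (adjusted p = 0.000122 and 0.00255). No other alternative called either gene. Several of the calls rest on single libraries. Gls2 was not called without FAT-MASH replicate 1 (adjusted p = 0.0515). Arg1 was not called when normal diet replicate 3 (0.0688), FAT-MASH replicate 1 (0.106) or FAT-MASH replicate 2 (0.0671) was left out. For Cps1 this held for normal diet replicate 2 (0.0515), normal diet replicate 3 (0.0528), FAT-MASH replicate 1 (0.0922) and FAT-MASH replicate 2 (0.0601). For Etnppl it held for normal diet replicate 1 (0.0655), normal diet replicate 2 (0.0825), FAT-MASH replicate 2 (0.107) and FAT-MASH replicate 3 (0.128), each an adjusted p. With pan-hepatocyte scaling, in which the libraries are scaled by genes that all hepatocytes express, Arg1 (adjusted p = 0.0918) and Cps1 (0.0511) were not called, which left 3 of the 10 genes lower and Ass1 as the urea cycle gene among them. Ass1 and Hsd17b13 were called under all 15 alternatives run.

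Mannose at 20% lowered most of these genes in mice on the regimen. With 20% for 12 weeks, 6 of the 10 genes were called lower than in FAT-MASH (8.26% of all genes tested were) and 0 were called higher (6.83% were). With 20% in the last 6 weeks, 9 were called lower (11.3% of all genes) and 0 higher (10.2%). The median log2 change of the 10 genes was -0.86 in prevention and -1.59 in therapy, and that of all genes was 0.01 and 0. The 20% libraries lay below all FAT-MASH libraries for 7 of the 10 genes in prevention (16.2% of all genes) and 9 in therapy (18.9%). Both comparisons, and those of 5% mannose, use the same 3 FAT-MASH libraries as control. In whole liver, fewer cells of a type and less RNA per cell cannot be told apart.

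Sds, Hal and Gls2 had the lowest log2 changes of the 10 genes in both groups. In therapy Gls2 (-1.73 ± 0.17) lay close to Etnppl (-1.61 ± 0.32), Otc (-1.61 ± 0.14) and Cyp2f2 (-1.56 ± 0.24). Sds was at 159, 92.6 and 163 CPM in FAT-MASH, 23.8, 24.1 and 19.8 CPM in 20% prevention and 21.3, 11.4 and 11.8 CPM in 20% therapy. Every library with 20% mannose lay far below every FAT-MASH and every normal-chow library of its batch. The log2 change was -2.62 ± 0.31 in prevention (6.13-fold lower, adjusted p = 2.99e-05) and -3.22 ± 0.32 in therapy (9.31-fold lower, adjusted p = 1.03e-06). Hal was at 213, 149.7 and 145 CPM in 20% prevention and 88.5, 118 and 53.7 CPM in 20% therapy, against 515, 522 and 543 CPM in FAT-MASH. The changes of -1.64 ± 0.24 (adjusted p = 0.000158) and -2.61 ± 0.25 (adjusted p = 6.6e-07) came with no overlap. Gls2, at 273, 391 and 412 CPM in FAT-MASH, was at 168, 129.9 and 135 CPM in 20% prevention and at 115, 121 and 89.4 CPM in 20% therapy. It fell by 1.31 ± 0.17 (adjusted p = 5.66e-05) and by 1.73 ± 0.17 (adjusted p = 1.1e-06) on the log2 scale. Sds shares exon bases with the oppositely transcribed Plbd2 and Gm15690, Gls2 with Spryd4 and Cyp2f2 with Gm15883. Counting did not use strand, and by the tool's defaults reads in those shared bases were counted for neither gene.

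Within the urea cycle Otc, Arg1 and Ass1 fell in both 20% groups, and Cps1 was called in therapy alone. Otc, which was not called for the regimen alone, was at 693, 742 and 809 CPM in FAT-MASH, 362, 314 and 341 CPM in 20% prevention and 238, 291 and 206 CPM in 20% therapy. All 6 libraries with 20% mannose lay below all 3 of FAT-MASH, with log2 changes of -1.14 ± 0.13 (adjusted p = 2.52e-05) and -1.61 ± 0.14 (adjusted p = 1.95e-07). Arg1, at 1031, 1156 and 1449 CPM in FAT-MASH, fell to 771, 696 and 584 CPM in prevention (-0.83 ± 0.14, adjusted p = 0.000637) and to 584, 534 and 595 CPM in therapy (-1.09 ± 0.14, adjusted p = 1.89e-05). Ass1 fell from 622, 959 and 956 CPM to 468, 464 and 435 CPM in prevention (-0.89 ± 0.18, adjusted p = 0.00223) and to 552, 419 and 538 CPM in therapy (-0.75 ± 0.18, adjusted p = 0.00539). In neither gene did a 20% group overlap with FAT-MASH. Cps1 had the highest CPM of these genes, a measure that is not divided by exon length. In prevention it had 2461, 1883 and 1697 CPM, which overlapped with the 2125, 2346 and 2938 CPM of FAT-MASH and was not called (-0.29 ± 0.16, adjusted p = 0.252). In therapy it was at 1619, 1471 and 1833 CPM, below all FAT-MASH libraries (-0.59 ± 0.16, adjusted p = 0.0124), but the call was lost without FAT-MASH replicate 3 (adjusted p = 0.0828) or 20% therapy replicate 2 (0.0555).

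Cyp2f2 and Etnppl were called in therapy and not in prevention, and edgeR called neither in the direct comparison of these schedules. There, DESeq2 and limma voom each called 4 of the 10 genes, Etnppl among them (adjusted p = 0.0409 and 0.0243). Over all genes, 0 to 702 were called in that comparison under the alternatives with all libraries kept. The P450 Cyp2f2 was at 1216, 1169.8 and 1049 CPM in FAT-MASH, 809, 790.2 and 513 CPM in 20% prevention and 357, 575 and 231 CPM in 20% therapy. Neither 20% group overlapped with FAT-MASH, yet the change in prevention just missed the threshold (-0.70 ± 0.24, adjusted p = 0.0523), while that in therapy passed it (-1.56 ± 0.24, adjusted p = 1e-04). The prevention value was called by DESeq2 (adjusted p = 0.0168) and by limma voom with sample quality weights (0.0331). Etnppl was at 121, 106 and 53.7 CPM in prevention, overlapping with the 173, 105 and 95.7 CPM of FAT-MASH (-0.41 ± 0.31, adjusted p = 0.431). It was at 47.8, 49.3 and 25.2 CPM in therapy, below all FAT-MASH libraries (-1.61 ± 0.32, adjusted p = 0.000996). Hsd17b13, the gene that the regimen had raised, was at 652, 636 and 574 CPM in prevention and 719, 603 and 449 CPM in therapy, beside 819, 582 and 646 CPM in FAT-MASH. Neither change was called (-0.14 ± 0.16, adjusted p = 0.629, and -0.21 ± 0.16, adjusted p = 0.389), and both turned positive with other scalings of the libraries (0.04 and 0.10 with library totals, 0.22 and 0.30 with pan-hepatocyte genes).

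**Figure D2:**
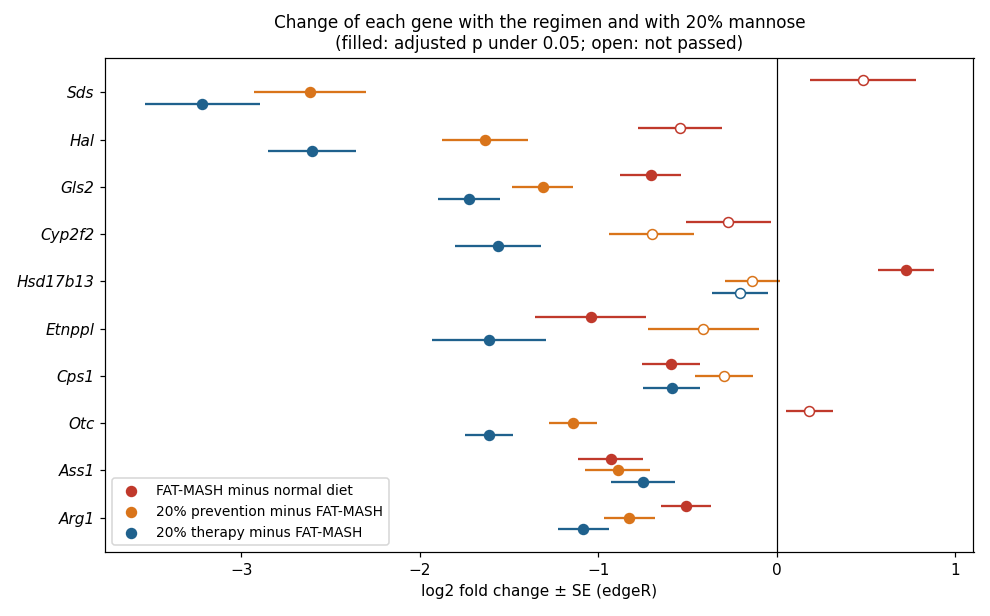
Log2 fold change with its standard error (horizontal axis) of each of the 10 genes for FAT-MASH minus normal chow, 20% prevention minus FAT-MASH and 20% therapy minus FAT-MASH, 3 libraries a group; filled points have an adjusted p under 0.05. The regimen points are split between both sides of 0, and the 20% therapy points run from -3.22 for Sds to -0.21 for Hsd17b13, whose sign turned with 2 other scalings.

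At 5% mannose Sds was the gene that passed the test against FAT-MASH in the main edgeR fit, in prevention. In 5% prevention all 10 genes had a log2 change below 0 under TMM scaling, with a median of -0.39, but only Sds was called lower (1.31% of all genes were; 0.966% were called higher). Sds was at 37.8, 60.6 and 48.8 CPM, below all FAT-MASH libraries (-1.49 ± 0.30, adjusted p = 0.0126). That call was lost without FAT-MASH replicate 1 (adjusted p = 0.0581) or 5% prevention replicate 1 (0.081). Hal, at 229, 304 and 318 CPM, lay below all FAT-MASH libraries and just missed the threshold (-0.89 ± 0.24, adjusted p = 0.0524). It was called by DESeq2 (adjusted p = 0.00549) and limma voom (0.0122). By edgeR it was called with only the groups compared (0.00792), all 25 libraries and a batch term (0.0269), or no filter on low counts (7.06e-11). Hal was not called in any fit that left out 1 library. DESeq2 called 2 and limma voom 3 of the 10 genes in this comparison. Calls over all genes ran from 376 to 1254 under the alternatives with all libraries kept. In 5% therapy none of the 10 genes was called by edgeR (0.0102% of all genes were called lower and 0.0255% higher). Its unadjusted p was under 0.05 for 1 of the 10 and for 1219 of 19571 genes. DESeq2 and limma voom called 0 of the 10. The 3 libraries of 5% therapy spread widely, for example 138, 48.3 and 111 CPM for Sds and 571, 316 and 543 CPM for Hal, with replicate 2 the lowest of the 3 in both.

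The doses were also compared directly. In prevention, 20% was called lower than 5% for 2 of the 10 genes (0.337% of all genes; 0 higher, 0.107%), Gls2 (log2 difference -0.93 ± 0.17, adjusted p = 0.0254) and Otc (-0.73 ± 0.13, adjusted p = 0.0254). Gls2 lost its call without 5% prevention replicate 3 (0.117) or 20% prevention replicate 2 (0.157), and Otc without 5% prevention replicate 2 (0.0635) or 3 (0.0817) or 20% prevention replicate 2 (0.152), each an adjusted p. Sds, with a difference of -1.12 ± 0.30 (adjusted p = 0.0861), and Hal, with -0.75 ± 0.24 (adjusted p = 0.138), were not called by edgeR. DESeq2 called 6 of the 10 genes, and calls over all genes ran from 20 to 819 under the alternatives with all libraries kept. In therapy, 20% was lower than 5% for 8 of the 10 genes (9.33% of all genes; 0 higher, 8.33%), all but Ass1 and Hsd17b13. The difference was -2.74 ± 0.32 for Sds (adjusted p = 8.93e-06) and -2.46 ± 0.25 for Hal (adjusted p = 2.61e-06), and it was -0.50 ± 0.16 for Cps1 (adjusted p = 0.0395). The Cps1 call was lost without 5% therapy replicate 1 (0.181) or 3 (0.0873), or 20% therapy replicate 1 (0.109) or 2 (0.124). It was also lost with only the groups compared (-0.49, adjusted p = 0.0525), library totals (-0.21, adjusted p = 0.292) and pan-hepatocyte scaling, where the difference was -0.01 (adjusted p = 0.966).

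Mannose at 20% for 6 weeks late in the regimen and for 12 weeks from its start did not give a called difference. Of the 10 genes, 0 were called by edgeR between 20% therapy and 20% prevention (0.0562% of all genes were called lower and 0.0255% higher). Its unadjusted p was under 0.05 for 5 of the 10 and for 2313 of 19571 genes. DESeq2 and limma voom each called 4 of the 10, Etnppl and Hal among them. Calls over all genes ran from 0 to 702 under the alternatives with all libraries kept. Etnppl had the lowest value of that difference (-1.20 ± 0.32, 95% interval -1.82 to -0.58, adjusted p = 0.105), and Hal had -0.97 ± 0.24 (interval -1.43 to -0.50, adjusted p = 0.0886). These intervals do not include 0, so the 2 schedules are not shown to act alike.

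Set against normal chow of the same batch, the mice on the regimen with 20% mannose had low levels across the list. In both 20% prevention and 20% therapy 9 of the 10 genes were called lower (15.1% and 16.7% of all genes were) and Hsd17b13 was called higher (18.2% and 19.4% were). In 5% prevention 8 were lower (10.1% of all genes) and 1 higher (12.3%), and in 5% therapy 4 were lower (5.89%) and 1 higher (7.04%). Without 5% therapy replicate 2, 3 genes instead of 5 were called in that group, with Cps1 (adjusted p = 0.054) and Gls2 (0.0963) lost. Hal was furthest down, at -3.15 ± 0.25 in 20% therapy (8.86-fold, adjusted p = 2.23e-08), followed by Sds at -2.74 ± 0.32 (adjusted p = 1.68e-06) and Etnppl at -2.66 ± 0.33 (adjusted p = 3.65e-06). The summed level of the 10 genes was 10603 to 12160 CPM on normal chow, 7626 to 9060.0 CPM in FAT-MASH, 4498 to 6049 CPM in 20% prevention and 4033 to 4342 CPM in 20% therapy. Cps1 makes up the largest share of that sum. Hsd17b13 in 20% therapy had 1 library, at 449 CPM, within the range of normal chow (386 to 464 CPM), and its call (0.52 ± 0.16, adjusted p = 0.0138) was lost without normal diet replicate 1 (0.0602) or 2 (0.0579) or 20% therapy replicate 1 (0.106).

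On normal chow, mannose gave no call among the 10 genes at either dose. With 5% mannose edgeR called 0 of 10 (0% of all genes in both directions). Its unadjusted p was under 0.05 for 1 of the 10 and for 1039 of 18462 genes, and DESeq2 and limma voom called 0 of the 10. With 20% mannose edgeR again called 0 of 10 (0% of all genes lower, 0.00542% higher). Its unadjusted p was under 0.05 for 5 of the 10 and for 1066 of 18462 genes. DESeq2 called 1 of the 10 and limma voom 0, while calls over all genes ran from 0 to 254 under the alternatives with all libraries kept. These tests compare 2 or 3 libraries with 2. More of the 10 genes were called at both doses without normal diet replicate 5, a fit that left 1 control library. With 20% mannose 9 of the 10 genes had a log2 change below 0, with a median of -0.24 beside 0.00 for all genes, and for 6 of them (Sds, Gls2, Etnppl, Otc, Ass1 and Arg1) every library lay below both controls (11.2% of all genes). Sds was at 95.5 and 69.0 CPM without mannose and at 44.4, 55.4 and 57.9 CPM with 20%, groups that did not overlap (-0.65 ± 0.17, adjusted p = 0.512). This was the gene that DESeq2 called (adjusted p = 0.0498), and edgeR called it without normal diet replicate 5 (adjusted p = 0.0319). Hal was at 540.5 and 518 CPM without mannose and 484, 524 and 528 CPM with 20%, which overlapped. Gls2 was at 763 and 496 CPM without and at 409, 437 and 492 CPM with 20% mannose (-0.50 ± 0.16, adjusted p = 0.725), so its groups were separated by a narrow gap. Otc was at 551 and 569 CPM without and at 496, 520.2 and 534 CPM with 20% mannose.

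The 12-week effect of 20% mannose was then compared between the diets, as the change on the regimen in the first batch minus the change on normal chow in the second, in a fit of all 25 libraries and 21373 genes. Sds, Hal and Otc were called (3 of 10; 3.41% of all genes were called lower and 2.26% higher). The difference was -1.97 ± 0.43 for Sds (adjusted p = 0.0076), -1.59 ± 0.32 for Hal (adjusted p = 0.00445) and -1.03 ± 0.18 for Otc (adjusted p = 0.00147). Each fell further on the regimen, and each was called under every alternative run, with a highest adjusted p of 0.0405, 0.025 and 0.0454. The other 7 were not called, and their difference between the diets is not shown to be 0. The 2 effects come from different batches, each with its own controls, so diet and batch cannot be told apart here.

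**Figure D3:**
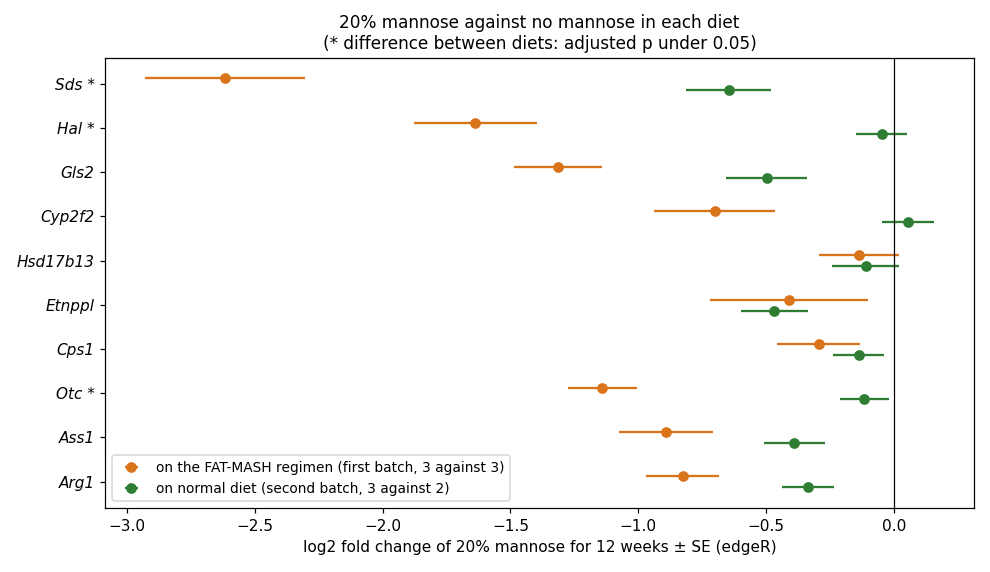
Log2 fold change with standard error (horizontal axis) of 20% mannose for 12 weeks against no mannose, on the FAT-MASH regimen (first batch, 3 libraries against 3) and on normal chow (second batch, 3 against 2). Asterisks mark Sds, Hal and Otc, whose points lie furthest left on the regimen relative to normal chow by the test of the difference.

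Other genes of nitrogen handling and of the periportal zone were read from lists chosen with earlier results known. Of 14 other urea cycle and ammonia genes, 4 were lower and 1 higher in FAT-MASH than on normal chow, 7 were lower in 20% prevention and 10 in 20% therapy than in FAT-MASH, and 0 were higher in either. Asl, the enzyme that cleaves the product of Ass1, fell from 429.9 ± 29.4 CPM (SD, n = 3) in FAT-MASH to 209 ± 21.3 in 20% prevention (-1.04 ± 0.14, adjusted p = 7.18e-05) and 188 ± 14.1 in 20% therapy (-1.19 ± 0.14, adjusted p = 5.94e-06). Got2, the mitochondrial aspartate aminotransferase, fell by 0.60 ± 0.08 in each on the log2 scale (adjusted p = 0.000121 and 3.74e-05), calls that were lost with pan-hepatocyte scaling (0.0969 and 0.48). Nags, which makes the activator of Cps1, was lower in FAT-MASH (79.3 ± 6.12 CPM) than on normal chow (115 ± 3.21 CPM; -0.53 ± 0.09, adjusted p = 0.000592). Of 19 other periportal genes tested, 3 were lower and 4 higher in FAT-MASH than on normal chow, 15 were lower in 20% prevention, and 15 were lower and 1 higher in 20% therapy. Hpd, an enzyme of tyrosine breakdown, fell from 1747 ± 98.4 CPM in FAT-MASH to 569 ± 15.1 CPM in 20% therapy (-1.62 ± 0.12, adjusted p = 6.53e-08), and Uroc1, which acts directly after Hal on histidine, from 555 ± 21.7 to 232 ± 14.8 CPM (-1.25 ± 0.11, adjusted p = 3.97e-07). Ftcd, a later enzyme of the histidine pathway, fell by 1.46 ± 0.14 on the log2 scale (adjusted p = 5.07e-07).

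Genes of the opposite end of the lobule were read in the same way. Of 15 pericentral genes, 6 were lower and 0 higher in FAT-MASH than on normal chow, with Oat, ornithine aminotransferase, falling from 1136 ± 194 to 99.6 ± 22.4 CPM (-3.51 ± 0.34, adjusted p = 1.12e-06) and Glul, glutamine synthetase, from 1029 ± 121 to 313 ± 24.0 CPM (-1.72 ± 0.19, adjusted p = 4.95e-06). Relative to FAT-MASH, 2 were lower and 3 higher in 20% prevention and 4 lower and 2 higher in 20% therapy, with medians of 0.06 and -0.29. Cyp2e1, the P450 that activates carbon tetrachloride, was among the lower ones, with 4665 ± 443 CPM in FAT-MASH and 1422 ± 265 CPM in 20% therapy (-1.71 ± 0.17, adjusted p = 1.1e-06). Whether the periportal and pericentral lists differ from each other was not tested. Of 16 regulators of periportal genes, 5 were lower and 1 higher in 20% prevention and 10 lower and 0 higher in 20% therapy. Klf15, a transcription factor of amino acid breakdown, fell by 1.33 ± 0.16 and 1.67 ± 0.16 on the log2 scale (adjusted p = 3.49e-05 and 8.88e-07). In 20% therapy Cebpa, a hepatocyte transcription factor, was at 305 ± 46.3 CPM beside 599 ± 119 CPM in FAT-MASH (-0.98 ± 0.13, adjusted p = 3.06e-05).

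Hepatocyte genes in general also lay lower with 20% mannose. Of the 11 pan-hepatocyte genes, 6 were lower in 20% prevention and 7 in 20% therapy (median -0.35 and -0.52), and their summed level was 119050 to 131600 CPM in FAT-MASH, 102120 to 125180 CPM in 20% prevention and 89881 to 97303 CPM in 20% therapy. The lowest of them had -1.01 and -1.09. Of the 10 periportal genes, 4 (Sds, Hal, Gls2 and Otc) lay below that value in prevention and 6 (with Cyp2f2 and Etnppl) in therapy. Otc in prevention (-1.14 ± 0.13) lay close to it. The lowest of the 15 pericentral genes (-1.37 and -1.71) and of the 16 regulators (-1.33 and -1.67) also lay below it. Whether genes differ from that value was not tested. The libraries were therefore also scaled by their totals and by the pan-hepatocyte genes, which shifted the median of all genes in 20% therapy from 0.00 to 0.30 and 0.51, and in 20% prevention from 0.01 to 0.20 and 0.38. In 20% therapy 9, 7 and 7 of the 10 genes were called lower under the 3 scalings, and in 20% prevention 6, 6 and 6. Cps1 (adjusted p = 0.143 with totals, 0.68 with pan-hepatocyte genes) and Ass1 (0.061 and 0.284) lost their therapy calls. Calls over all genes went from 1989 higher and 2206 lower in 20% therapy to 5407 and 1113 with totals and 8085 and 661 with pan-hepatocyte genes, and in 20% prevention from 1336 and 1616 to 3066 and 949, and 5107 and 504.

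**Figure D4:**
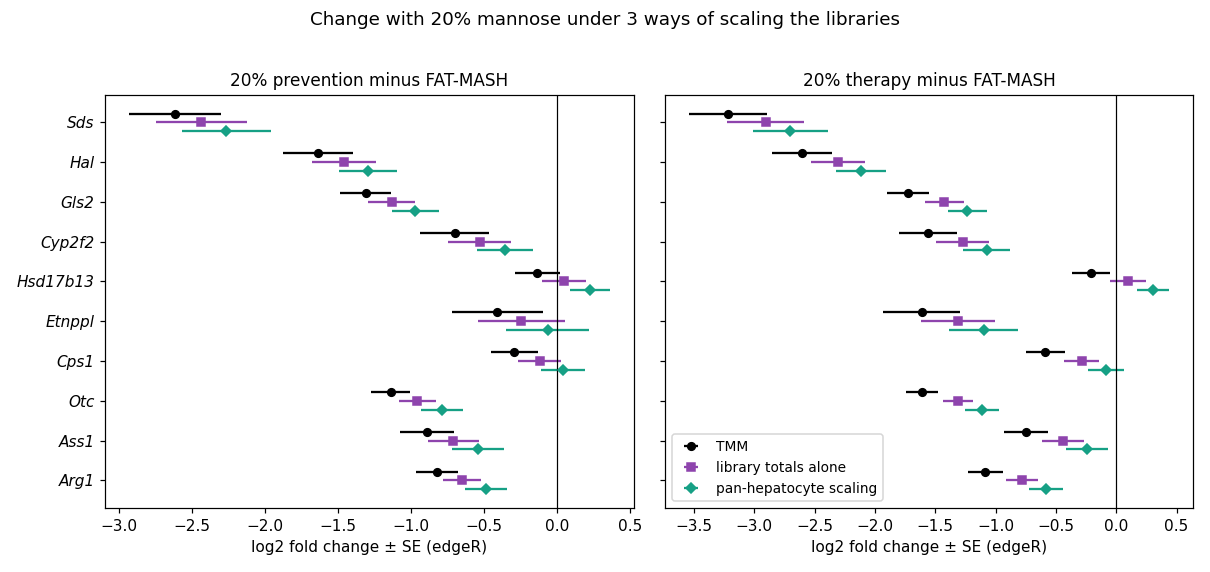
Log2 fold change with standard error (horizontal axes) of the 10 genes for 20% prevention (left) and 20% therapy (right) minus FAT-MASH with TMM scaling, library totals alone and scaling by 11 pan-hepatocyte genes. Each scaling moves all genes to the right by a like amount; Sds stays lowest, Cps1 comes close to 0 and turns positive in prevention with pan-hepatocyte genes, and Hsd17b13 turns positive with both.

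Markers of other cells moved in the same libraries. The summed level of 10 cholangiocyte (bile duct cell) markers was 124 to 141 CPM in FAT-MASH, 234 to 572 CPM in 20% prevention and 188 to 806 CPM in 20% therapy, with 6 and 7 of the 10 called higher. The 16 cell cycle genes summed to 18.7 to 26.6 CPM in FAT-MASH, 129 to 143 CPM in 20% prevention and 180.0 to 531 CPM in 20% therapy, and 16 of 16 were called higher in both. Of 12 macrophage markers, 0 and 1 were higher than in FAT-MASH, with sums of 482 to 847, 576 to 1031 and 508 to 1000.5 CPM in FAT-MASH, 20% prevention and 20% therapy. Of 10 stellate cell and fibroblast markers, 0 and 2 were higher (510.1 to 664, 517 to 1011 and 542 to 1166 CPM). No marker of these 4 lists was at 0 in all libraries of one of these groups. In FAT-MASH against normal chow, 7 of 12 macrophage and 7 of 10 stellate markers were higher, with sums of 246 to 281 and 260.0 to 334 CPM on normal chow. The part of these changes in the falls of the periportal genes was not tested.

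Across the 18 first-batch libraries, the levels of 9 of the 10 genes were positively correlated in every pair, and those of Hsd17b13 were correlated with them weakly or negatively. Pearson's r of log2 levels was 0.65 to 0.97 (median 0.86) over the 36 pairs of the 9, with Hal and Gls2 the closest pair, and -0.53 to 0.06 over the 9 pairs with Hsd17b13. These libraries share groups and scaling, so r largely follows the group means. After the group means were taken off, the medians were 0.40 over the 36 pairs (from -0.23 to 0.76) and 0.28 over the 9 pairs. Among 15 regimen libraries alone, the pairs with Hsd17b13 ran from 0.20 to 0.69. The nearest genes were sought among 9780 other genes with a mean of at least 5 CPM. Genes without a symbol or with a predicted or clone name, pseudogenes and Mup genes were left out. Among these 9780, the most like Sds over the 18 libraries were Uroc1 (r = 0.968) and Klf15 (0.960), and those most like Hal were Pecr (0.981) and Ndrg2 (0.980). Otc was most like Dpyd (0.972) and Pde9a (0.969), Gls2 like Msrb1 (0.978) and Nipsnap1 (0.977), and Arg1 like Dcxr (0.980) and Ivd (0.978). Ass1 was nearest to Bhmt2 (0.972) and Osgep (0.960), Cps1 to Slc6a12 (0.945) and Ugt2a3 (0.944), Cyp2f2 to Hsd11b1 (0.951) and Pigr (0.949), and Etnppl to Amy1 (0.942) and Fetub (0.937). For Hsd17b13 the nearest genes, Slc39a14 (0.897) and Dnase2a (0.857), reached lower values than the nearest genes of the other 9.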

How the data were processed

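Liver RNA of 25 mice in 8 groups was sequenced. The values deposited by the authors are raw counts, 1 whole number for each gene and library. Per the submitters' processing notes, STAR, GRCm39 and featureCounts 2.0.6 were used. Per the file headers, the counting used featureCounts 2.0.1 and GENCODE release M31, with no option for strand, read pairs or several alignments. By the tool's defaults, reads in 2 genes or with several alignments were not counted. Symbols came from the annotation of another build, which gave a symbol to 52073 of 56980 genes. Replicate libraries differed from each other by more than counting noise (chi-square over degrees of freedom at least 21.2). The highest value, 115.5, was that of the 2 second-batch libraries on normal chow without mannose, the controls of both mannose tests on normal chow. The members and lists were chosen with earlier results of these data known; 1 of 154 list genes was not matched.

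Counts were tested with edgeR 4.0.16 (R 4.3.3): quasi-likelihood test, TMM, filterByExpr, adjusted p under 0.05, fitted over the 18 first-batch libraries (19571 genes), the 7 second-batch libraries (18462) or all 25 (21373). Of other lists, up to 3 genes with the smallest p per comparison were named, and the 2 genes most like each member. DESeq2 1.42.0, limma 3.58.1 voom, other scalings, no filter, other sample sets, a replicate block and leaving out each library were alternatives. The fit was tested on simulated data. TPM used the table's exon lengths. Motifs were sought in RefSeq promoters of 250 bases.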

Additional observations from a re-analysis of the deposited data

Results flagged for a closer look

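The effect of 20% mannose for 12 weeks differed between the diets for 3 of the 10 genes by a test of the difference itself (edgeR's quasi-likelihood test, adjusted over all genes). Of all 21373 genes tested, 3.41% were called lower and 2.26% higher. The change on the FAT-MASH regimen minus the change on normal chow was -1.97 for Sds, -1.59 for Hal and -1.03 for Otc on the log2 scale. For Sds the first change was -2.62 and the second -0.65, for 3 libraries against 3 and 3 against 2. The first change comes from the first batch and the second from the second batch, so diet and batch cannot be told apart here.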

How the results depend on the processing

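The direction of every called gene was kept under each alternative run: over 128 gene results and 1927 values under alternatives, 1805 kept direction and side of the threshold, 80 lost the call, 35 gained it and 7 changed sign, 0 of these 7 in a gene called in either fit. The sign changes were Cps1 in 5% and 20% prevention against FAT-MASH with pan-hepatocyte scaling (0.001 and 0.04), and Hsd17b13 in 20% prevention with library totals (0.044), pan-hepatocyte scaling (0.223) or without FAT-MASH replicate 1 (0.015; the range without 1 library each was -0.235 to 0.015), and in 20% therapy with library totals (0.097) or pan-hepatocyte scaling (0.305), as did the ratio of its TPM levels (0.166).

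With all libraries kept, the number of the 10 genes called moved by over 1.5 times, or from 0, in 6 comparisons. For 5% prevention against FAT-MASH it went from 1 to 2 with DESeq2, 6 with no filter on low counts, 3 with limma voom, 3 with only the groups compared and 2 with all 25 libraries and a batch term. It went from 0 to 1 with no filter for 5% therapy, from 2 to 6 (DESeq2) and 7 (no filter) for 20% against 5% in prevention, and from 0 to 4 (DESeq2), 6 (no filter) and 4 (limma voom) for 20% therapy against 20% prevention. It went from 0 to 1 (DESeq2) and 3 (no filter) for 20% on normal chow, and from 3 to 5 (no filter) for the difference between diets. The cause was not tested.

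Leaving out 1 library gave 3 to 5 called genes (main 6) for FAT-MASH against normal chow and, against FAT-MASH, 0 to 1 for 5% prevention, 6 to 6 for 20% prevention, 0 to 0 for 5% therapy and 8 to 9 for 20% therapy. Against normal chow it gave 7 to 8 for 5% prevention, 10 to 10 for 20% prevention, 3 to 5 for 5% therapy and 9 to 10 for 20% therapy. For 20% against 5% it gave 0 to 2 in prevention and 7 to 9 in therapy, 0 to 2 for 20% therapy against 20% prevention, 0 to 1 and 0 to 2 for 5% and 20% on normal chow, and 3 to 4 for the difference between diets. By this, the number moved as far in FAT-MASH against normal chow, 5% therapy against normal chow and 5% on normal chow too. A group of 2 libraries less 1 is assumed to vary like the other groups.

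Calls over all genes ranged, over all alternatives, from 127 to 1254 (main 445) for 5% prevention, 1938 to 5611 (2952) for 20% prevention, 0 to 339 (7) for 5% therapy and 3072 to 8746 (4195) for 20% therapy, each against FAT-MASH. Against normal chow they ranged from 1415 to 3159 (2530) for 5% therapy and 5656 to 11045 (7057) for 20% therapy. They ranged from 1 to 819 (87) and 2301 to 8074 (3455) for 20% against 5% in prevention and therapy, 0 to 702 (16) for therapy against prevention at 20%, 0 to 222 (0) and 0 to 254 (1) for 5% and 20% on normal chow, and 524 to 2479 (1211) for the difference between diets.

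Libraries with the same replicate number in different groups did not deviate together (45 pairs, mean r -0.021, lowest -0.426, 9 pairs over 0.1; 5 of 18 libraries correlated best with their own number), so the numbers do not pair the samples. A replicate block in the first batch changed 0 of 88 gene calls and 0 of 12 counts of called genes, for example 9 of 10 genes for 20% therapy against FAT-MASH with the block and 9 without it. No paired analysis was run in the second batch or for the difference between diets. By their titles, the control libraries there share no replicate number with the mannose groups. The names of their count columns do share numbers with those of the mannose groups, and whether these pair the samples was not tested. With 2 or 3 libraries a group, small changes could not be detected.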
